A study of Homo sapiens with 9 samples.

Results

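The genes described here encode extracellular and cell-surface antagonists of WNT signalling and the WNT-potentiating R-spondins, 10 genes of the 46427 in the deposited table: SFRP1, SFRP2, FRZB, DKK1, DKK3, NOTUM, APCDD1, KREMEN1, RSPO2 and RSPO3. They were chosen by gene symbol, with earlier results of these data known. All 10 had a row of counts and of FPKM values. Messenger RNA was sequenced in 9 libraries of H9, a widely used line of human embryonic stem cells (hESC). In the first group, 3 libraries came from neural progenitor cells (NPC) at day 11 that had been exposed to 10 nM bafilomycin A1 (BafA1), an inhibitor of the proton pump that acidifies lysosomes, for 6 h at a time. Another 3 libraries came from untreated day 11 NPC (control NPC), and the last 3 came from untreated, undifferentiated hESC. Both NPC groups went through a midbrain dopaminergic protocol with 200 nM LDN193189 and 10 µM SB431542, which inhibit BMP and TGF-beta receptors. The same protocol added 2 µM purmorphamine, a Hedgehog agonist, and 3 µM CHIR99021, a GSK3 inhibitor that stabilises beta-catenin. The labels name several alternative windows of days for BafA1 without tying 1 of them to the sequenced cells. They describe the libraries as biological replicates of a single line, and are silent on shared culture, harvest or sequencing runs.

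WNT ligands bind frizzled receptors and the co-receptors LRP5 and LRP6, and the signal stabilises beta-catenin, which acts with TCF and LEF factors in the nucleus. The antagonists act outside the cell at different steps. Secreted frizzled-related proteins (SFRP1, SFRP2 and FRZB) carry a frizzled-like domain that binds WNT. DKK1 binds LRP5 and LRP6, and KREMEN1 is a transmembrane receptor for DKK1. NOTUM is an esterase that strips the lipid from WNT, and APCDD1 is a membrane glycoprotein that inhibits the pathway near its receptors. R-spondins work in the other direction: they bind LGR receptors together with the ubiquitin ligases RNF43 and ZNRF3, and so keep frizzled receptors on the surface. In the embryonic midbrain, WNT signalling patterns the midbrain and its floor plate, from which dopaminergic neurons arise. Several antagonist genes, DKK1, NOTUM and APCDD1 among them, are known as beta-catenin targets in other settings.

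Library totals were 43124679 to 69703791 counts, so that a single count was worth 0.0143 to 0.0232 CPM (counts relative to the library total). Of 46427 genes, 20685 passed a filter on low counts, among them all 10 members. Messenger RNA of mitochondrial genes made up 2.09 ± 0.112% of counts in BafA1 NPC, 3.04 ± 0.115% in control NPC and 4.19 ± 0.431% in hESC (SD, n = 3 each). Marker levels matched the hESC and NPC labels, but do not check the split of NPC into BafA1 and control. The markers were chosen after their values were seen, so they describe the groups and are no test of the labels. Of 5 pluripotency markers (POU5F1, NANOG, TDGF1, PRDM14 and DNMT3B), all were lower in control NPC than in hESC, against 31.6% of tested genes. All 6 midbrain floor plate markers (FOXA2, LMX1A, SHH, CORIN, OTX2 and MSX1) were higher, against 33% of tested genes. Values of a gene are CPM scaled by TMM (trimmed mean of M-values), so a change is measured against the bulk of the transcriptome. Levels of different genes are compared in FPKM, which is per transcript length. A gene was called changed where its p-value, from edgeR's quasi-likelihood test with Benjamini-Hochberg adjustment over all 20685 genes, was under 0.05 after adjustment.

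The promoters of the 3 members that fell with BafA1 are shown first, because their calls held under every alternative tried. RefSeq windows of GRCh38.p14, from 250 bases before to 50 bases after the start of transcription, were found for 5 of the 10 members (FRZB, SFRP2, RSPO3, DKK1 and APCDD1). The windows printed here are chr10:52314031-52314330 for DKK1 on the plus strand, chr2:182866588-182866887 for FRZB on the minus strand and chr18:10454385-10454684 for APCDD1 on the plus strand. Capitals mark the TATA motif TATAAA on the strand of the gene.
DKK1: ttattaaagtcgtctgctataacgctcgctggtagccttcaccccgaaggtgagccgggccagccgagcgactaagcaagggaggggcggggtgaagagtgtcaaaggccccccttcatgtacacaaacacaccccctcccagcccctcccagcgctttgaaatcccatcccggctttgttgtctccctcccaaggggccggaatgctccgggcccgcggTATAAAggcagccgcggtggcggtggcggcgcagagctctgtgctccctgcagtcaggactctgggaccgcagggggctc
FRZB: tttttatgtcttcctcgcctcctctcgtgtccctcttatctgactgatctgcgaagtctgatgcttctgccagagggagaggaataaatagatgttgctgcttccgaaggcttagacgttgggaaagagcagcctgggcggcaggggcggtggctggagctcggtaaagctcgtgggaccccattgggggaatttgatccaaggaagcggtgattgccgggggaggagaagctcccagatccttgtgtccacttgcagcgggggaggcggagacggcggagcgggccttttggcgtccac
APCDD1: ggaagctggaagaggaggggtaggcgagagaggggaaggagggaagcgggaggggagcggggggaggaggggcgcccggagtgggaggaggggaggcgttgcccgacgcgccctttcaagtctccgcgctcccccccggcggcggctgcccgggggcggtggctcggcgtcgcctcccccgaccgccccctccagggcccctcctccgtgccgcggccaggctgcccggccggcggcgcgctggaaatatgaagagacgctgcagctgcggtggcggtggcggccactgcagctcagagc
The DKK1 window held the TATAAA motif 30 bases before the start, and the other 4 windows held none. The motif was chosen after the sequences were seen, and 4.30% of 14659 windows of tested genes held it. A TCF/LEF motif was searched only in the form CTTTGAT, or ATCAAAG on the opposite strand. That form was in 0 of the 5 windows, against 1.56% of the windows of tested genes. Similar sequences, such as CTTTGAA and GTCAAAG in the DKK1 window and ATTTGAT in the FRZB window, were not searched for. GC content was 63.7% in the DKK1 window, 58.3% in the FRZB window and 76.0% in the APCDD1 window, against a median of 64.7% over tested genes.

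With BafA1 treatment, APCDD1, FRZB and DKK1 fell, SFRP2 and NOTUM rose, and the other 5 members were not called. In that comparison, 41.5% of all tested genes were called in either direction. By direction, 20.8% were called higher (4309 genes) and 20.7% lower (4277 genes), or 3104 higher and 5681 lower with libraries scaled by their totals alone. The libraries of BafA1 NPC and control NPC did not overlap for 6 of the 10 members, against 49.2% of tested genes. Called changes of at least 2-fold were seen in 2 members, APCDD1 and FRZB, against 10.9% of tested genes. The median log2 change was 0.14 over the members and 0 over all tested genes, and the median absolute log2 change was 0.47 and 0.40. The share of members called was thus near that of all genes. In bulk libraries, fewer cells of a type and less RNA per cell cannot be told apart.

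Between control NPC and hESC the members moved much further. All 10 were called, 8 higher and 2 lower in control NPC, against 64.5% of tested genes called, 33% higher and 31.6% lower. No member had overlapping libraries, against 72.8% of tested genes without overlap, and 9 of 10 members changed by at least 2-fold, against 34% of tested genes. The median absolute log2 change was 3.49 over the members and 0.65 over all tested genes. Since the members were chosen with earlier results of these data known, this contrast describes them and is no test. SFRP1 and SFRP2 were the 2 members that fell. BafA1 NPC against hESC gave the same directions for all 10 members, all of them called and at least 2-fold, against 70.4% of tested genes called, 35.5% higher and 34.8% lower, 74.6% without overlap and 39% called at 2-fold. DKK3 was near that mark, at 2.03-fold. Under the alternatives the log2 change was 0.84 to 1.08 for DKK3, 0.80 to 2.29 for RSPO2 and 0.15 to 4.30 for RSPO3, so these did not stay at 2-fold throughout. Nor did RSPO2 (0.73 to 2.01) and RSPO3 (0.11 to 3.74) in control NPC against hESC. The comparisons share libraries: the first and second share control NPC, the second and the last share hESC, and the first and the last share BafA1 NPC.

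**Figure D1:**
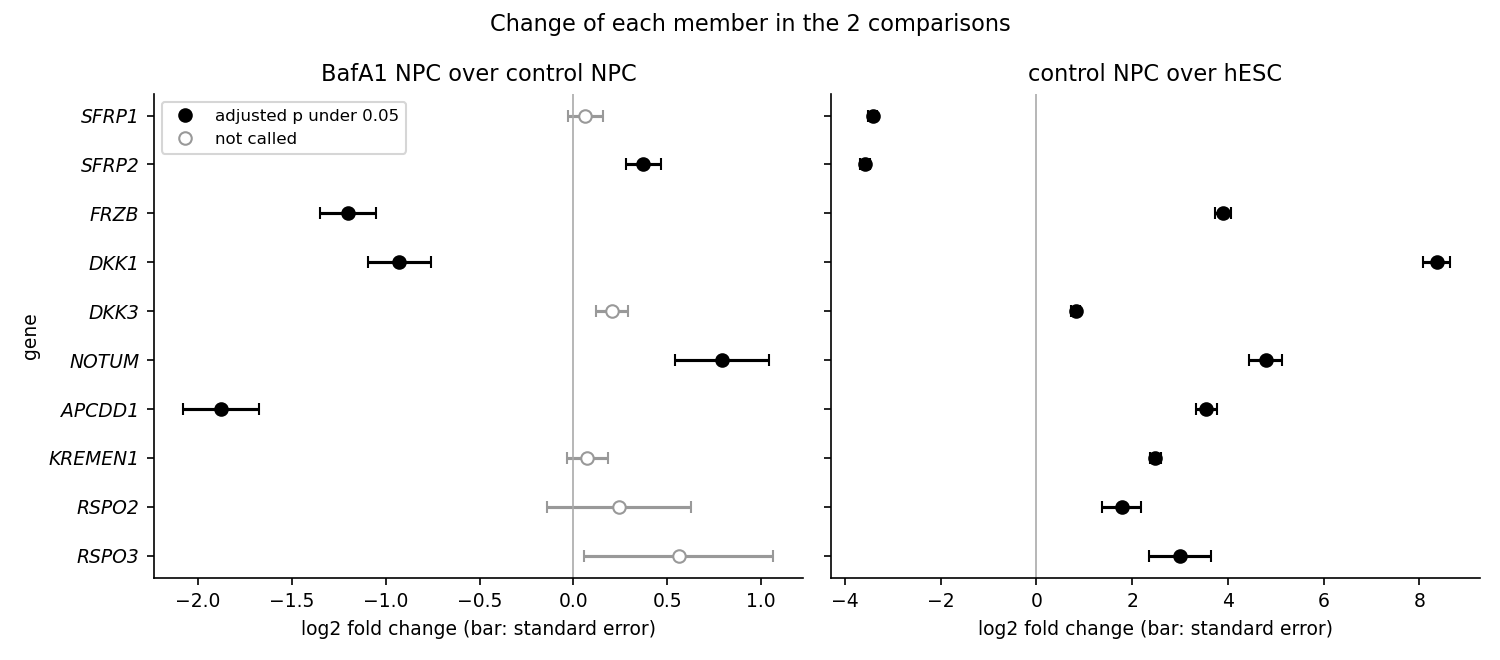
Log2 fold changes of the 10 members for BafA1 NPC over control NPC (left) and control NPC over hESC (right), with standard errors from the edgeR fit of 9 libraries. Filled points passed the adjusted p of 0.05. On the left APCDD1, at -1.88, and FRZB, at -1.20, lie farthest from 0, and on the right DKK1, at 8.37, does, on an axis with a wider range.

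The secreted frizzled-related genes split into a pair that was high in hESC and another gene that was high in NPC. SFRP2 (chromosome 4, 153780591 to 153789083) had 68.6, 78.4 and 72.3 CPM in BafA1 NPC, 57.3, 61.1 and 50.9 CPM in control NPC and 699, 659 and 671 CPM in hESC. Every BafA1 library was above every control library, and all 6 NPC libraries lay far below hESC. SFRP2 was 1.29-fold higher in BafA1 NPC than in control NPC (log2 change 0.37 ± 0.093 SE, adjusted p = 0.00743), and 11.98-fold lower in control NPC than in hESC (-3.58 ± 0.10, adjusted p = 7.50e-11). On log2(FPKM + 1) with limma, the BafA1 change of SFRP2 was 0.22 and was not called (adjusted p = 0.0541), nor was it with a pseudocount of 0.1 (adjusted p = 0.0551) or without the filter on low counts (adjusted p = 0.0727). SFRP1 (chromosome 8, 41261962 to 41309473) had 69.2, 58.3 and 55.7 CPM in BafA1 NPC, 59.6, 57.7 and 58.1 CPM in control NPC and 647, 622 and 612 CPM in hESC. The NPC libraries of SFRP1 overlapped. Its BafA1 change was 0.063 ± 0.093 (adjusted p = 0.619), while control NPC were 10.7-fold below hESC (-3.42 ± 0.10, adjusted p = 9.85e-11).

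FRZB (chromosome 2, 182833275 to 182866637) is also called SFRP3. It fell with BafA1, where SFRP2 rose, and was higher in NPC than in hESC, where SFRP1 and SFRP2 were lower. It had 14.7, 20.4 and 15.1 CPM in BafA1 NPC, 43.7, 39.8 and 31.8 CPM in control NPC and 2.63, 2.72 and 2.40 CPM in hESC. All 3 groups were apart, with control NPC highest and BafA1 NPC between. FRZB was 2.30-fold lower in BafA1 NPC than in control NPC (-1.20 ± 0.15, adjusted p = 9.73e-05) and 14.9-fold higher in control NPC than in hESC (3.89 ± 0.17, adjusted p = 2.26e-09). BafA1 NPC remained 6.46-fold above hESC (2.69, adjusted p = 3.70e-08).

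Among the genes of the Dickkopf branch, DKK1 changed with BafA1, whereas its receptor gene KREMEN1 was not called. DKK1 (chromosome 10, 52314281 to 52317657), the LRP5 and LRP6 antagonist whose promoter carries the TATA motif above, had 25.8, 19.99 and 22.6 CPM in BafA1 NPC, 53.1, 44.2 and 32.8 CPM in control NPC and 0.154, 0.166 and 0.0682 CPM in hESC. The hESC values rest on 10, 9 and 4 counts. The lowest control library was still above the highest BafA1 library. DKK1 was 1.90-fold lower in BafA1 NPC than in control NPC (-0.93 ± 0.17, adjusted p = 0.00111) and had the highest log2 change of the members in control NPC against hESC (8.37 ± 0.28, adjusted p = 2.65e-10). In BafA1 NPC it stayed well above hESC (7.44, adjusted p = 7.09e-10).

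KREMEN1 (chromosome 22, 29073035 to 29168333) had 65.6, 50.6 and 51.3 CPM in BafA1 NPC, 58.4, 49.4 and 51.4 CPM in control NPC and 9.63, 9.31 and 9.50 CPM in hESC. The NPC libraries overlapped, and the BafA1 change was 0.074 ± 0.11 (adjusted p = 0.617). Control NPC were 5.59-fold above hESC (2.48 ± 0.12, adjusted p = 4.31e-09). The lower end of KREMEN1 by coordinate overlaps C22orf31, which had 0 to 5 counts per library in BafA1 NPC, 12 to 21 in control NPC and 0 in hESC, against at least 506 counts for KREMEN1. DKK3 (chromosome 11, 11963036 to 12009745), a divergent family member whose action on the pathway is less settled, had 40.9, 48.1 and 44.0 CPM in BafA1 NPC, 37.2, 38.7 and 39.3 CPM in control NPC and 23.5, 20.9 and 21.0 CPM in hESC. The BafA1 and control libraries did not overlap, but the change of 0.21 ± 0.087 was not called (adjusted p = 0.0789). It was called without BafA1 replicate 1 (0.27, adjusted p = 0.0230) and with DESeq2 (0.22, adjusted p = 0.0490). In control NPC DKK3 was 1.76-fold above hESC (0.82 ± 0.089, adjusted p = 5.93e-06), the smallest change of any member in that comparison.

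APCDD1 and NOTUM, which act at the membrane and on the WNT lipid, moved in opposite directions with BafA1. APCDD1 (chromosome 18, 10454635 to 10489949) had 98.5, 78.4 and 53.0 CPM in BafA1 NPC, 336, 290.3 and 217 CPM in control NPC and 24.3, 24.2 and 23.4 CPM in hESC. The NPC libraries varied widely within each group, yet the groups stayed apart. APCDD1 was 3.67-fold lower in BafA1 NPC than in control NPC (-1.88 ± 0.20, adjusted p = 4.59e-05), which placed its absolute change at rank 845 of 20685 tested genes. It was 11.7-fold higher in control NPC than in hESC (3.55 ± 0.22, adjusted p = 4.18e-08). In BafA1 NPC it was 3.20-fold above hESC (1.68, adjusted p = 1.37e-05).

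NOTUM (chromosome 17, 81952507 to 81961187) had 6.25, 8.04 and 10.3 CPM in BafA1 NPC, 5.81, 5.29 and 3.12 CPM in control NPC and 0.123, 0.202 and 0.188 CPM in hESC, where it had 8, 11 and 11 counts. The NPC groups were apart by a small gap in CPM. In FPKM they overlapped, with 2.346 in BafA1 replicate 1 and 2.351 in control replicate 1. NOTUM was 1.73-fold higher in BafA1 NPC (0.79 ± 0.25, adjusted p = 0.0241) and 27.6-fold higher in control NPC than in hESC (4.79 ± 0.34, adjusted p = 1.58e-07). The BafA1 call was lost without BafA1 replicate 2 (0.81, adjusted p = 0.0502), without BafA1 replicate 3 (0.59, adjusted p = 0.112) and without control replicate 3 (0.56, adjusted p = 0.0653). It was also lost after the trend of each library on GC content and length was removed (0.52, adjusted p = 0.0895). NOTUM transcripts are 67.2% GC, above 98.6% of tested genes with a value, and the correlation of library deviations with GC across genes was -0.0250 to 0.0517 in BafA1 NPC and -0.355 to -0.142 in control NPC (Spearman's rho, genes not being independent replicates).

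**Figure D2:**
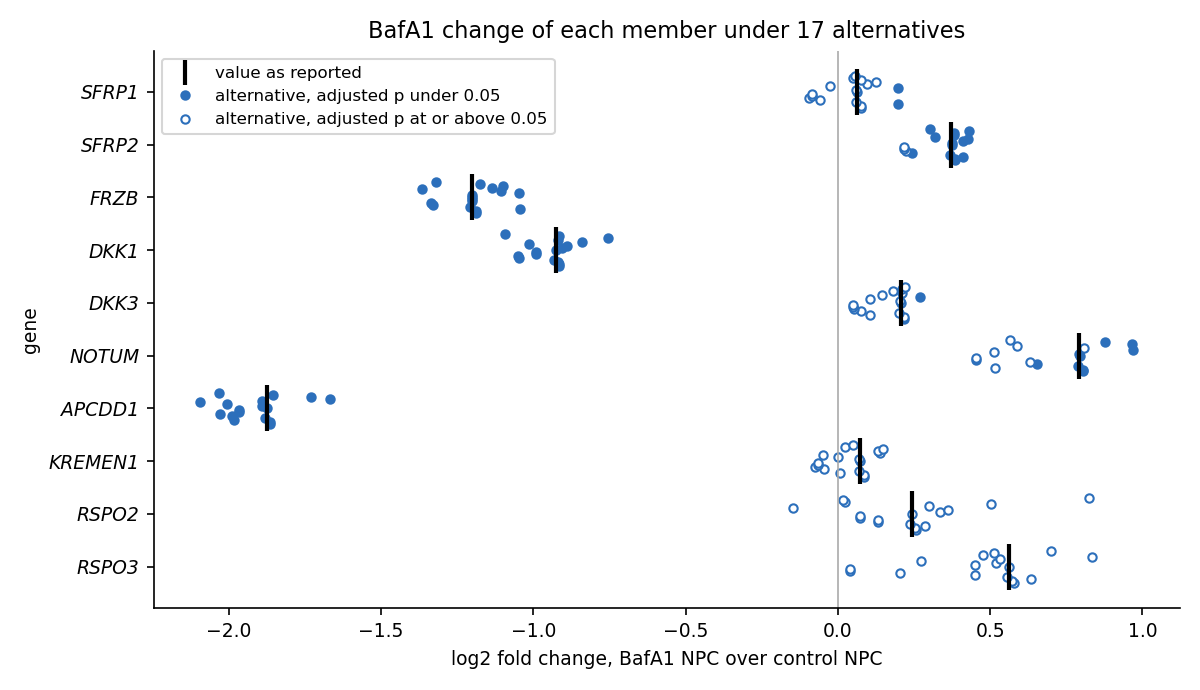
Log2 fold change of each member for BafA1 NPC over control NPC as reported (black bars) and under 17 alternative settings (points; filled where the adjusted p was under 0.05). The points of FRZB, DKK1 and APCDD1 are all filled and all below 0, those of NOTUM and SFRP2 are all above 0 but not all filled, and those of SFRP1, KREMEN1 and RSPO2 lie on both sides of 0.

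RSPO2 and RSPO3 were low in every group and did not pass the test for BafA1. RSPO2 (chromosome 8, 107899316 to 108083620) had 8.08, 5.02 and 3.34 CPM in BafA1 NPC, 3.10, 3.08 and 7.71 CPM in control NPC and 1.01, 1.42 and 1.60 CPM in hESC. A single library of each NPC group was above the rest, and the groups overlapped. The BafA1 change was 0.24 ± 0.38 (adjusted p = 0.645), while control NPC were 3.45-fold above hESC (1.79 ± 0.41, adjusted p = 0.00219). RSPO3 (chromosome 6, 127118671 to 127199481) had 56, 32 and 29 counts in BafA1 NPC, 23, 28 and 34 in control NPC and 7, 4 and 0 in hESC. In CPM these were 1.02, 0.780 and 0.450 in BafA1 NPC, 0.443, 0.473 and 0.598 in control NPC and 0.108, 0.0736 and 0 in hESC. At this depth the BafA1 change of RSPO3 had a wide error (0.56 ± 0.50, adjusted p = 0.399). Against hESC, RSPO3 was higher in control NPC (3.00 ± 0.64, adjusted p = 0.00141) and in BafA1 NPC (3.56 ± 0.63, adjusted p = 3.17e-04), on 11 counts in all hESC libraries together. Without hESC replicate 1 these changes were 3.74 in control NPC and 4.30 in BafA1 NPC.

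**Figure D3:**
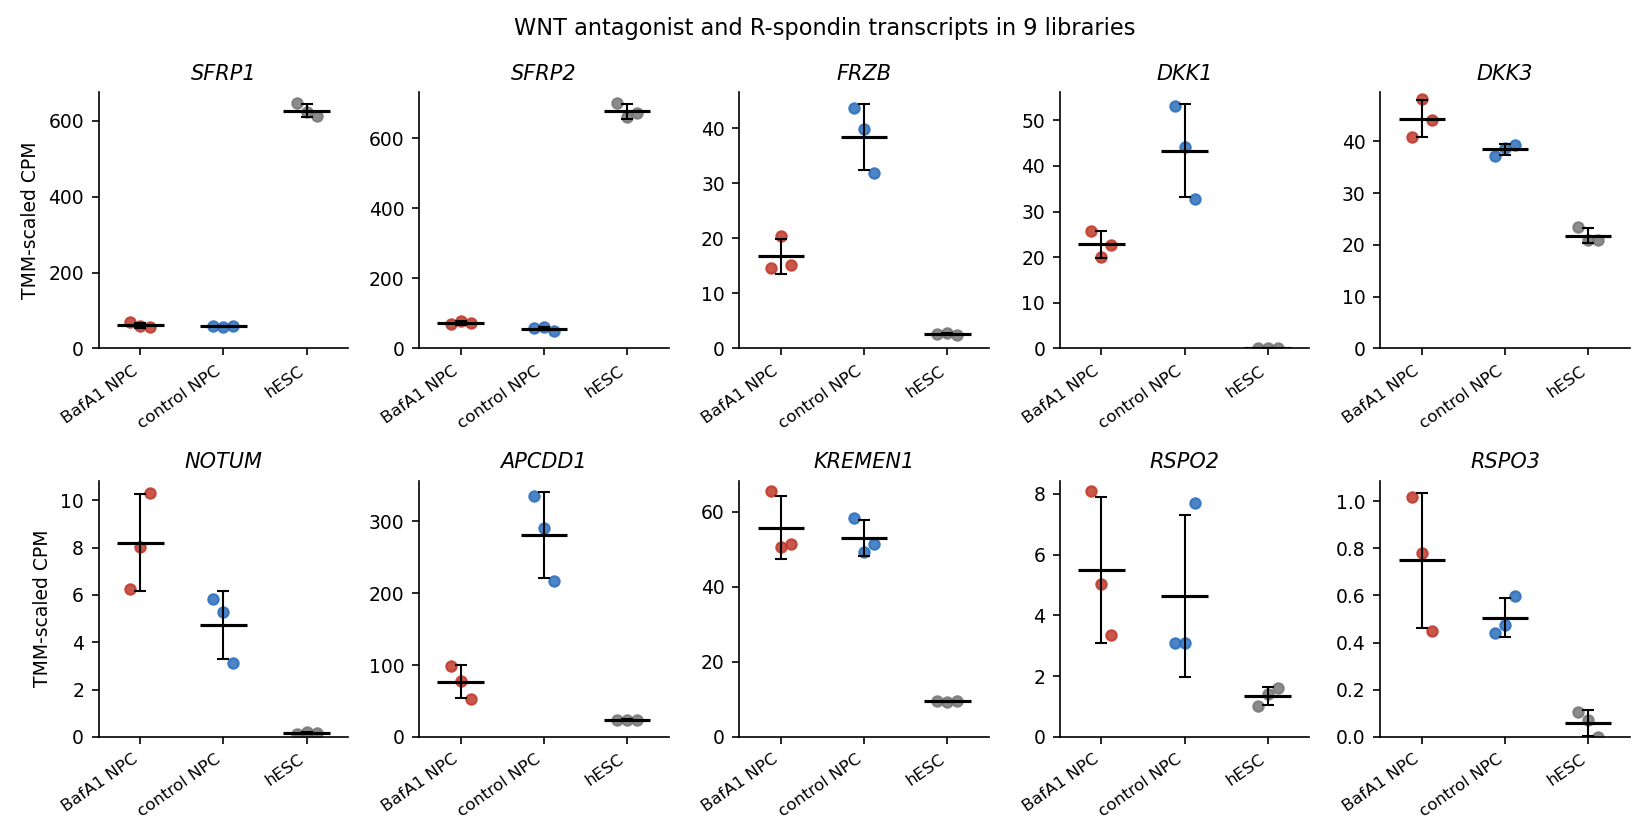
TMM-scaled CPM of each member in 9 libraries, as BafA1 NPC, control NPC and hESC from left to right, each panel on its own linear axis from 0; points are libraries, bars the mean and SD of 3. SFRP1 and SFRP2 lie between 50.9 and 78.4 CPM in NPC and between 612 and 699 CPM in hESC, and FRZB, DKK1 and APCDD1 are highest in control NPC.

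Per transcript length, SFRP2 had the highest level in BafA1 NPC and in hESC, and APCDD1 in control NPC. In BafA1 NPC the order of mean FPKM was SFRP2 (29.6), APCDD1 (15.7), DKK3 (13.4), SFRP1 (11.1), DKK1 (10.3), KREMEN1 (7.38), FRZB (5.11), NOTUM (2.98), RSPO2 (1.44) and RSPO3 (0.125). The neighbours from APCDD1 down to KREMEN1 overlapped between libraries, each with the next in the order, and the steps below KREMEN1 did not. In control NPC it was APCDD1 (63.7), SFRP2 (25.4), DKK1 (21.6), FRZB (13.1), DKK3 (12.9), SFRP1 (11.8), KREMEN1 (7.72), NOTUM (1.92), RSPO2 (1.34) and RSPO3 (0.0920). Here SFRP2 overlapped with DKK1, FRZB with DKK3, and NOTUM with RSPO2. In hESC it was SFRP2 (292), SFRP1 (121), DKK3 (7.06), APCDD1 (5.13), KREMEN1 (1.32), FRZB (0.842), RSPO2 (0.368), NOTUM (0.0625), DKK1 (0.0578) and RSPO3 (0.0102). In hESC NOTUM overlapped with DKK1 between libraries, and no other neighbours did.

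The FPKM of the 10 members summed to 106, 94.4 and 91.5 in BafA1 NPC, 179.7, 166 and 133 in control NPC and 440.5, 416 and 429 in hESC. All libraries of a group were apart from those of the other groups. SFRP2 made up 30.6 ± 2.96% of that sum in BafA1 NPC, 16.1 ± 1.46% in control NPC and 68.2 ± 0.375% in hESC (SD, n = 3 each). APCDD1 made up 16.0 ± 3.76% in BafA1 NPC, 39.6 ± 2.91% in control NPC and 1.20 ± 0.0322% in hESC. SFRP1 held 11.4 ± 0.845% in BafA1 NPC, 7.48 ± 1.03% in control NPC and 28.3 ± 0.336% in hESC. FPKM is not TMM-scaled, so these sums are also relative amounts. Of the members, DKK3, APCDD1, KREMEN1, RSPO2 and RSPO3 have more than 1 annotated transcript, and their counts per FPKM in any library stayed within 98.1 to 105.3% of their own median. Among members with 1 transcript the ratio reached 120.5% for DKK1 and 112.4% for NOTUM in hESC, where both had 11 counts or fewer per library.

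**Figure D4:**
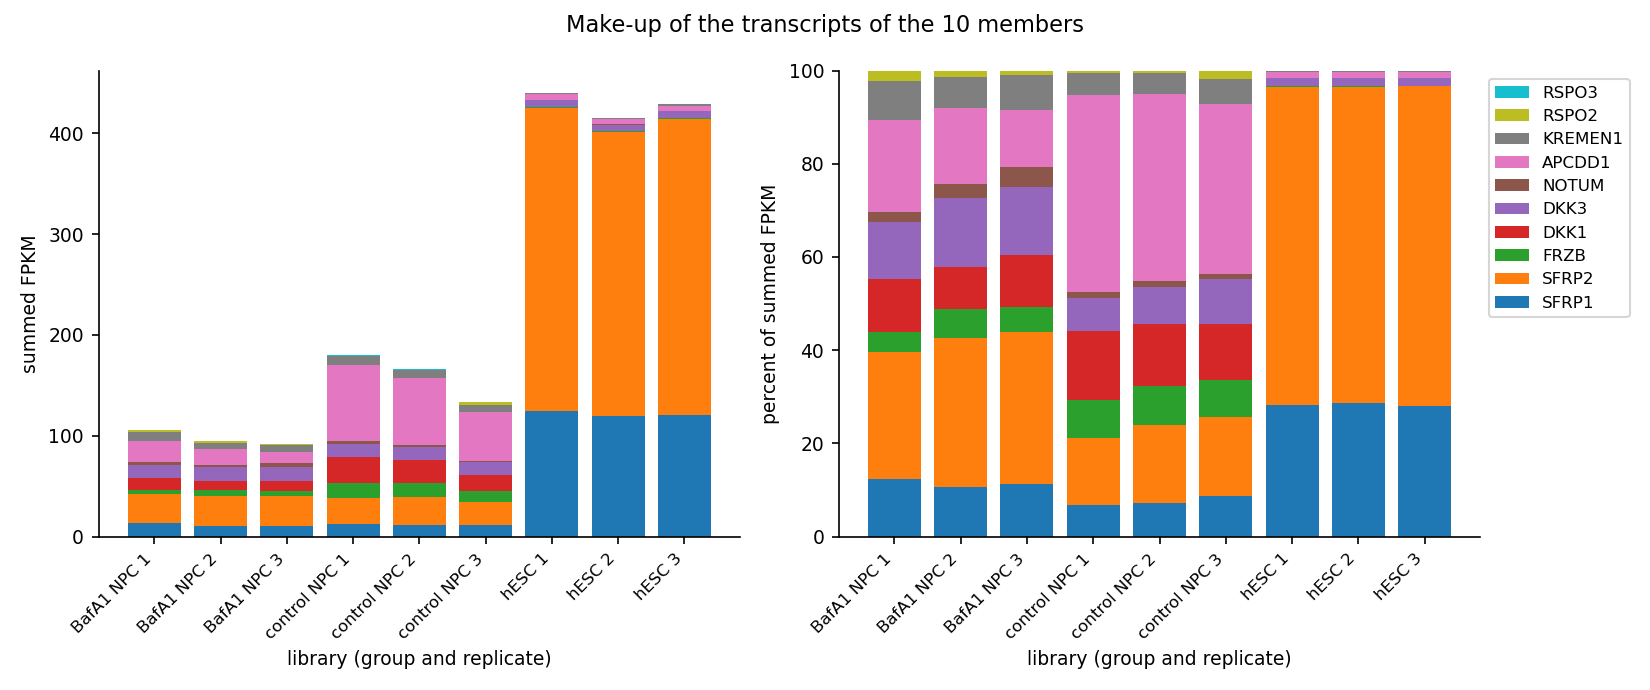
FPKM of the 10 members stacked per library (left, summed FPKM) and as percent of their sum (right), with BafA1 NPC, control NPC and hESC from left to right. SFRP2 and SFRP1 fill nearly all of the hESC bars, APCDD1 is the largest block in control NPC at 39.6%, and SFRP2 is the largest in BafA1 NPC at 30.6%.

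Other antagonists were fixed as a list of 16 genes, of which 15 were tested. The list is not purely extracellular, since it includes SHISA2, described below. With BafA1, 6 of them rose and 1 fell (median log2 change 0.46), beside the 20.8% and 20.7% of all genes given above. DRAXIN, a secreted antagonist that binds LRP6, averaged 26.7 ± 2.24 CPM in BafA1 NPC and 15.3 ± 2.16 CPM in control NPC (0.80 ± 0.12, adjusted p = 2.85e-04). KREMEN2, the second DKK receptor, averaged 5.36 ± 0.262 CPM in BafA1 NPC and 2.97 ± 0.325 CPM in control NPC (0.85 ± 0.15, adjusted p = 0.00108). SFRP4 averaged 3.15 ± 0.796 CPM in BafA1 NPC and 0.666 ± 0.311 CPM in control NPC (2.23 ± 0.38, adjusted p = 0.00131), and had no count in hESC. Against hESC, control NPC had 6 higher and 9 lower, beside 33% and 31.6% of all tested genes. The same shares apply to the lists below. DKK2, a relative of DKK1, reached 16.8 ± 4.49 CPM in control NPC against 0.0171 ± 0.0295 CPM in hESC, and SHISA2, which holds frizzled receptors inside the cell, fell to 7.50 ± 1.14 CPM in control NPC against 92.3 ± 4.57 CPM in hESC.

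Of 7 other genes of the R-spondin axis, 2 rose and 2 fell with BafA1 (median 0.22), and 3 rose and 3 fell in control NPC against hESC. RNF43, a ubiquitin ligase that removes frizzled receptors and is itself bound by R-spondins, averaged 2.69 ± 0.247 CPM in BafA1 NPC and 5.93 ± 1.29 CPM in control NPC (-1.14 ± 0.18, adjusted p = 5.57e-04). Its relative ZNRF3 went the other way, with 124 ± 4.00 CPM in BafA1 NPC and 94.6 ± 9.80 CPM in control NPC (0.39 ± 0.086, adjusted p = 0.00349). RSPO4, another R-spondin gene, averaged 2.18 ± 0.150 CPM in BafA1 NPC, 1.19 ± 0.417 CPM in control NPC and 19.4 ± 0.839 CPM in hESC, and rose with BafA1 (0.87 ± 0.22, adjusted p = 0.00842). Unlike RSPO2 and RSPO3, RSPO4 was thus highest in hESC (control NPC against hESC, -4.03 ± 0.22, adjusted p = 1.85e-08).

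Of 15 receptors and glypicans on which the members act, 3 rose and 4 fell with BafA1 (median 0.097), and 7 rose and 5 fell in control NPC against hESC. GPC4, a glypican that holds WNT at the cell surface, averaged 432 ± 23.4 CPM in BafA1 NPC and 200.4 ± 19.2 CPM in control NPC (1.11 ± 0.096, adjusted p = 1.59e-05). FZD10 averaged 3.33 ± 0.983 CPM in BafA1 NPC and 16.9 ± 7.15 CPM in control NPC (-2.33 ± 0.33, adjusted p = 2.52e-04), while FZD2 averaged 183 ± 4.94 CPM in BafA1 NPC and 129 ± 4.24 CPM in control NPC (0.50 ± 0.072, adjusted p = 2.42e-04). In control NPC against hESC, FZD1 rose (3.54 ± 0.16) and FZD5 fell (-2.76 ± 0.12).

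Of 21 WNT ligands and secretion factors, 17 were tested. With BafA1, 5 rose and 4 fell (median 0.033), and 12 rose and 2 fell in control NPC against hESC (median 2.98). WLS, the carrier that brings WNT to the cell surface, averaged 621 ± 59.4 CPM in BafA1 NPC and 343 ± 21.3 CPM in control NPC (0.86 ± 0.10, adjusted p = 8.23e-05). WNT7A averaged 11.5 ± 2.46 CPM in BafA1 NPC and 1.78 ± 0.555 CPM in control NPC (2.69 ± 0.36, adjusted p = 1.76e-04). WNT4 averaged 1.40 ± 0.260 CPM in BafA1 NPC and 5.14 ± 1.63 CPM in control NPC (-1.87 ± 0.26, adjusted p = 2.08e-04). WNT2B was higher in control NPC than in hESC (5.22 ± 0.18) and was not called for BafA1 (-0.087 ± 0.13, adjusted p = 0.637).

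Of 15 feedback and target genes of beta-catenin, 13 were tested. With BafA1, 2 rose and 3 fell (median -0.14), and 8 rose and 5 fell in control NPC against hESC (median 1.29). TCF7, a nuclear partner of beta-catenin, averaged 5.88 ± 1.23 CPM in BafA1 NPC and 14.4 ± 1.93 CPM in control NPC (-1.30 ± 0.16, adjusted p = 1.13e-04). MYC averaged 26.9 ± 3.15 CPM in BafA1 NPC and 5.78 ± 1.20 CPM in control NPC (2.21 ± 0.14, adjusted p = 4.68e-06), and BAMBI rose too (0.75 ± 0.16, adjusted p = 0.00292). LEF1 averaged 40.6 ± 0.684 CPM in BafA1 NPC and 52.7 ± 12.2 CPM in control NPC, and its change of -0.38 ± 0.15 was not called (adjusted p = 0.0613). TNFRSF19 was higher in control NPC than in hESC (4.49 ± 0.12) and was not called for BafA1 (0.074 ± 0.098, adjusted p = 0.576).

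Markers of mesenchyme, neural progenitors, the floor plate and neurons were all called higher in both NPC groups than in hESC. So were 8 of the 10 members. All 7 mesenchyme markers (COL1A1, COL3A1, LUM, DCN, TWIST1, PRRX1 and PDGFRA) were higher in control NPC than in hESC, against 33% of tested genes. Their summed level was 2031 to 2263 CPM in BafA1 NPC, 1104 to 1844 CPM in control NPC and 69.7 to 74.4 CPM in hESC, where LUM had no count. COL1A1 carried most of that sum. Without it, the other 6 markers summed to 159.9 to 189 CPM in BafA1 NPC, 206 to 256 CPM in control NPC and 1.69 to 2.13 CPM in hESC, so that the NPC groups stood in the opposite order. DCN was low, with 0.167 ± 0.117 CPM in BafA1 NPC and 1.73 ± 0.333 CPM in control NPC. With BafA1, COL1A1 (0.70 ± 0.17) and PDGFRA (0.49 ± 0.11) rose, and LUM (-1.67 ± 0.14), DCN (-3.45 ± 0.50) and PRRX1 (-1.54 ± 0.21) fell. Their part in the changes of the members was not tested. Of 5 neural progenitor markers, SOX2, PAX6 and HES5 rose and SOX1 fell with BafA1, and the list summed to 921 to 1129 CPM in BafA1 NPC and 895 to 932 CPM in control NPC. PAX6 and HES5 were low. PAX6 averaged 1.04 ± 0.516 CPM in BafA1 NPC and 0.380 ± 0.163 CPM in control NPC, and HES5 1.73 ± 1.26 CPM and 0.381 ± 0.268 CPM. Of 6 floor plate markers, FOXA2 (0.68 ± 0.095) and MSX1 (0.84 ± 0.20) rose and none fell, and of 5 neuronal markers none was called in either direction.

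Markers of other lineages summed to less in NPC than in hESC. The hESC sums were 77.4 to 83.6 CPM for neural crest, 17.7 to 19.6 CPM for endoderm and 33.3 to 38.2 CPM for endothelium. In hESC, FOXD3 (40.7 CPM) and NGFR (37.0 CPM) carried most of the first, FOXA3 (18.5 CPM) of the second and KDR (32.9 CPM) of the third. Not every marker was lower in NPC. GATA6, an endoderm marker at 0 in hESC, was higher in control NPC (7.81, adjusted p = 1.28e-04) and in BafA1 NPC (9.10, adjusted p = 1.83e-05). The other tested markers of these lists were called lower than in hESC in both NPC groups. Of 4 neural crest markers (3 tested), 2 rose and none fell with BafA1. They summed to 23.8 to 33.1 CPM in BafA1 NPC, with FOXD3 at 0, and to 8.41 to 10.0 CPM in control NPC, with SOX10 and FOXD3 at 0. NGFR accounted for 29.2 ± 4.98 CPM of this in BafA1 NPC and 8.94 ± 0.845 CPM in control NPC (1.70 ± 0.15, adjusted p = 1.59e-05). Of 4 endoderm markers (2 tested), FOXA3 rose. They summed to 2.47 to 4.33 CPM in BafA1 NPC, with GATA4 at 0, and to 0.760 to 1.60 CPM in control NPC, with SOX17 and GATA4 at 0. Of 3 endothelial markers, KDR fell, and the list summed to 3.05 to 3.70 CPM in BafA1 NPC and to 4.54 to 9.41 CPM in control NPC, with PECAM1 at 0 in control NPC.

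The genes most like each member in pattern were found by the root mean square difference of centred log2(CPM + 0.5) over the 9 libraries, among 11721 genes of at least 5 CPM in their highest group. The pattern of DKK3 was nearest to those of C1orf50 (0.0584) and SNX2 (0.0662), and that of KREMEN1 to that of AMOT (0.0838). SFRP2 was nearest to GCNT2 (0.133), APCDD1 to PLXNA2 (0.213) and RHOJ (0.259), and RSPO2 to SCARA5 (0.231) and GPC3 (0.241). PLXNA2, for example, averaged 11.4 CPM in BafA1 NPC, 41.8 CPM in control NPC and 2.36 CPM in hESC. NOTUM had ESAM among its nearest 2 (0.179). Of the 20 genes so named, these 9 were also among the nearest 2 with a pseudocount of 1 and the other 11 were not: SFN and ACE for SFRP1, PYCARD for SFRP2, OAF and CDH11 for FRZB, TWIST1 and PRRX1 for DKK1, CD44 for NOTUM, RIN2 for KREMEN1, and ZNF610 and SRPX for RSPO3, whose level is too low for this measure. Among the members themselves, SFRP1 and SFRP2 were closest (0.183). Next came DKK3 with RSPO3 (0.203), RSPO2 with RSPO3 (0.423) and FRZB with APCDD1 (0.446). RSPO3 lies below 5 CPM in every group, where the pseudocount flattens its pattern. These are descriptions over the same 9 libraries, which fall into 3 groups.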

How the data were processed

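Per the labels' protocols, stranded mRNA libraries were made from total RNA. Per the submitters' processing notes, Trimmomatic and the build GRCh38 were used; for the aligner, counting tool and strand setting the sources used here give nothing. The authors deposited raw read counts of each gene in 9 libraries, per the file headers, and separate tables of FPKM for each group. Counts and FPKM of a gene kept a fixed ratio between libraries (within 0.5%, after a factor per library), among genes with at least 200 counts in both libraries compared, for 100% of those with 1 transcript and for 23.1 to 28.5% of those with more than 5, so counts may be summed from transcripts. Columns were matched by name, and those named Control were taken as untreated NPC, since no other group remained.

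Counts were tested with edgeR 4.0.16 in R 4.3.3: filterByExpr, TMM, 1 term per group over all 9 libraries, quasi-likelihood test (two-sided), Benjamini-Hochberg over 20685 genes, calls at an adjusted p under 0.05. SE is the log2 change over the root of F. The fit was tested on simulated data. Alternatives used limma 3.58.1 on log2(FPKM + 1) or log2(FPKM + 0.1), and DESeq2 1.42.0. Replicates differed by 11.3 to 75.4 in chi-square per degree of freedom, so none was a copy. The p-values set each group difference against the spread between these libraries of a single line. Whether libraries shared a culture or harvest is not stated. Coordinates are 1-based, from RefSeq on GRCh38.p14. GC content came from GENCODE v29 transcripts for 84.55% of tested genes.

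The members and gene lists were chosen with earlier results of these data known. The rule for named genes took all 10 members, up to 3 genes of each pathway list with the smallest adjusted p for BafA1 and up to 2 for control NPC against hESC, and the 2 genes most like each member, leaving out unnamed, antisense and pseudogene symbols. Cell type markers named outside that rule were chosen after their values were seen.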

Additional observations from a re-analysis of the deposited data

How the results depend on the processing

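In control NPC against hESC and in BafA1 NPC against hESC, all 10 members kept their direction and call under each of 17 alternatives, but the sizes of low genes moved: for control NPC against hESC, limma on log2(FPKM + 1) gave 4.39 for DKK1, 1.44 for NOTUM and 0.11 for RSPO3, where a pseudocount shrinks low values by construction. For BafA1 NPC against control NPC, FRZB (-1.37 to -1.04), DKK1 (-1.09 to -0.76) and APCDD1 (-2.09 to -1.67) kept theirs under all 17. The 2 members called higher became 1 with limma on log2(FPKM + 1), 0 on log2(FPKM + 0.1), 0 on log2(FPKM + 1) of every gene above 0, and 1 to 3 when 1 library was left out. With limma on every gene above 0, 2520 genes were called higher, against 4309. Library totals alone moved the median of all genes to -0.12 for BafA1 NPC against control NPC, and to 0.14 for control NPC against hESC, where 7640 genes were then higher and 5681 lower. SFRP1, called with the GC and length trends removed (0.20, adjusted p = 0.0450), changed sign with library totals (-0.059), limma on log2(FPKM + 0.1) (-0.093) and on log2(FPKM + 1) with or without the filter (-0.086 in both), and ranged from -0.027 without BafA1 replicate 1 to 0.12 without BafA1 replicate 3. KREMEN1 changed sign with library totals (-0.047) and limma (-0.076 with a pseudocount of 0.1, -0.067 with 1, with or without the filter), and ranged from -0.048 without BafA1 replicate 1 to 0.15 without control replicate 1. RSPO2 ranged from -0.15 without BafA1 replicate 1 to 0.83 without control replicate 3. NOTUM was also not called with limma on log2(FPKM + 0.1) (0.63, adjusted p = 0.0690) and on every gene above 0 (0.45, adjusted p = 0.117). The cause of these changes was not tested. With 1 library of a group left out, the genes called for BafA1 against control were 3241 to 4452 higher and 3278 to 4295 lower.

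Same-numbered libraries of BafA1 and control NPC correlated at -0.0613 to 0.0129, and not every library correlated best with its own number, so replicate numbers were not used as pairs. For control NPC and hESC, same-numbered libraries correlated at 0.0359 to 0.149, above the -0.150 to 0.0562 of the others but for an overlap. For BafA1 NPC and hESC they correlated at -0.0305 to 0.13. With the replicate number as a block, 4112 genes were higher and 4130 lower, and 2 members were higher and 3 lower, the same calls. With the block and GC and length trends together, SFRP1 was 0.20 (adjusted p = 0.0489), NOTUM 0.51 (adjusted p = 0.139) and KREMEN1 -0.00083. Depth limits RSPO3, with 0 to 7 counts in an hESC library.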

Other observations

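Within the control group, replicate 3 had the lowest level of SFRP2, FRZB, DKK1, NOTUM and APCDD1 (50.9, 31.8, 32.8, 3.12 and 217 CPM) and the highest of DKK3, RSPO2 and RSPO3 (39.3, 7.71 and 0.598 CPM). Within the BafA1 group, replicate 1 had the highest level of SFRP1, DKK1, APCDD1, KREMEN1, RSPO2 and RSPO3 and the lowest of SFRP2, FRZB, DKK3 and NOTUM. The coefficient of variation of RSPO2 was 43.9% in BafA1 NPC, 57.7% in control NPC and 22.4% in hESC, and that of APCDD1 was 29.8% in BafA1 NPC, 21.2% in control NPC and 2.01% in hESC. SFRP1 and SFRP2 varied by 2.79% and 3.05% in hESC.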
